A study of Mus musculus with 9 samples.

Results

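The hypoxia-inducible factor (HIF) genes and the genes of the oxygen-sensing machinery that controls them were followed in cultured male germ cells of the mouse. The set holds 10 genes, taken by symbol from the 49216 genes with a count: the alpha subunits Hif1a, Epas1 and Hif3a, the beta subunit Arnt, the prolyl hydroxylases Egln1, Egln2 and Egln3, the asparaginyl hydroxylase Hif1an, the ubiquitin ligase receptor Vhl, and Bhlhe40, a transcriptional repressor that is itself a HIF target. All 10 were found, and 8 had enough counts to be tested. Egln3 and Bhlhe40 did not.

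The cells were pachytene and diplotene spermatocytes, sorted from digested testes of C57Bl mice that carry tdTomato under a germ cell promoter. Poly-A RNA was sequenced from 9 libraries, 3 untreated (given no drug), 3 kept in 24 mM oxamate, and 3 kept in the same dose of oxamate plus octyl-L2HG at 0.3 mM. Both incubations lasted 48 h. Oxamate is a pyruvate analog that inhibits lactate dehydrogenase, and octyl-L2HG is an ester of L-2-hydroxyglutarate that enters cells. The labels give no culture time for the untreated cells, so that drug and time in culture cannot be told apart in comparisons with that group. No group received octyl-L2HG alone or another octyl ester. The 3 libraries of a group are lettered A, B and C, and nothing says whether they came from separate animals or cultures. What the p-values measure is therefore the spread from library to library, which may be technical.

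In the textbook pathway, EGLN enzymes use oxygen and 2-oxoglutarate to hydroxylate prolines of the HIF alpha proteins. VHL binds the hydroxylated alpha protein and directs it to the proteasome, while HIF1AN hydroxylates an asparagine and blocks the binding of coactivators. When oxygen is short, alpha protein persists, pairs with ARNT and switches on genes of glycolysis, iron uptake and vessel growth. L-2-hydroxyglutarate resembles 2-oxoglutarate and is known to inhibit enzymes of this class. These steps act on protein, and the libraries measure only mRNA.

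The coding bases of the hydroxylation motif (leucine, 2 other residues, leucine, alanine, proline) were read from GENCODE M21, in the longest coding sequence of each gene, because they set the alpha subunits apart from the rest of the set. They are printed 5′ to 3′, with the codon of the hydroxylated proline in capitals. Hif1a and Epas1 each held 2 motifs and Hif3a held 1. The other 7 genes held 0.
Hif1a, proline 402: ctcactctgctggctCCA
Hif1a, proline 577: ttggagatgctggctCCC
Epas1, proline 405: ctggcccagttggccCCC
Epas1, proline 530: ttggagaccttggcaCCC
Hif3a, proline 489: ttggagatgctggccCCC

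Promoters were taken from the RefSeq table for GRCm38.p6, which held 8 of the 10 genes with 9 starts, Egln2 having 2. The 250 bases before each RefSeq start were searched on both strands. The search was for ACGTG and GCGTG, the core letters of the hypoxia response element, and for the E-box CACGTG. An E-box holds ACGTG on each strand and so counts as 2 core matches. Of all 32851 promoter windows of this length, 38.6% held at least 1 core match, 16.7% at least 2, 6.6% at least 3 and 6.0% an E-box. Of the 8 genes with an entry, 6 held at least 1 core match. The 3 promoters printed belong to Hif1a, Hif3a and Egln2. With oxamate and octyl-L2HG against untreated, Hif1a was called higher and Hif3a lower. Egln2 is the most abundant hydroxylase of the set. Matches are in capitals.
Hif1a, chr12:73907617-73907866, + strand, 3 core matches including the E-box: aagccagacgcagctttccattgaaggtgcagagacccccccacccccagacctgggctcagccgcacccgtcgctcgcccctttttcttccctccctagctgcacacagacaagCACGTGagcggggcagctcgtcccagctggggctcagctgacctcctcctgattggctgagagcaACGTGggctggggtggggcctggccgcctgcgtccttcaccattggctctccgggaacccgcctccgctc
Hif3a, chr7:17062428-17062677, - strand, 2 core matches: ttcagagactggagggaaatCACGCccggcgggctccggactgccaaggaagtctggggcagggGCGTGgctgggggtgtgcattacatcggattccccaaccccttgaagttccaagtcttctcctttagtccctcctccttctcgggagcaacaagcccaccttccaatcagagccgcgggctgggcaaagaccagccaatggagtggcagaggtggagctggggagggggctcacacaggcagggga
Egln2, chr7:27166803-27167052, - strand, 4 core matches: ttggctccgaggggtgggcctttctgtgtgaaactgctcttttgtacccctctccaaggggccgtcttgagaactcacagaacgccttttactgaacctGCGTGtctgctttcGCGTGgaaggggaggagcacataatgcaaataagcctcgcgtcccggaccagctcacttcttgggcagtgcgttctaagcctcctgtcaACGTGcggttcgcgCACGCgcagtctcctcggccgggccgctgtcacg
The RefSeq start used for Hif1a lies inside the longer GENCODE gene model, whose first base is at 73901375, so the window precedes an internal start and not the first base of that model. The Hif1a matches lie 135, 134 and 70 bases before this RefSeq start. The 4 in the printed Egln2 window lie 151, 137, 48 and 34 bases before its start. The window of the second Egln2 start, chr7:27165729-27165978, is not printed and held 1 core match, 116 bases before that start. The windows of Vhl and Hif1an held 0 core matches. A match in these letters is a description of the sequence and says nothing of binding.

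The set covered a wide range of levels. Levels between genes are compared as CPM (read counts scaled to a common library size) per kilobase of exon, after scaling the libraries by the trimmed mean of M values, and are means ± SD of the 3 untreated libraries. Egln2 stood at 176 ± 1.51, above 98.78% of protein-coding genes. Vhl followed at 18.1 ± 1.3, Hif1an at 9.16 ± 0.362 and Arnt at 3.52 ± 0.421. None of these 4 overlapped its neighbour in any untreated library. The alpha subunits were far lower, with Hif3a at 0.168 ± 0.0441, Hif1a at 0.146 ± 0.0204 and Epas1 at 0.103 ± 0.0186. Egln1 stood at 0.0787 ± 0.0188, Bhlhe40 at 0.0330 ± 0.0153 and Egln3 at 0.00572 ± 0.00991. The untreated libraries overlapped between Hif3a and Hif1a, between Hif3a and Epas1, between Epas1 and Egln1, and between Bhlhe40 and Egln3, so the order within these pairs is not resolved.

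**Figure D1:**
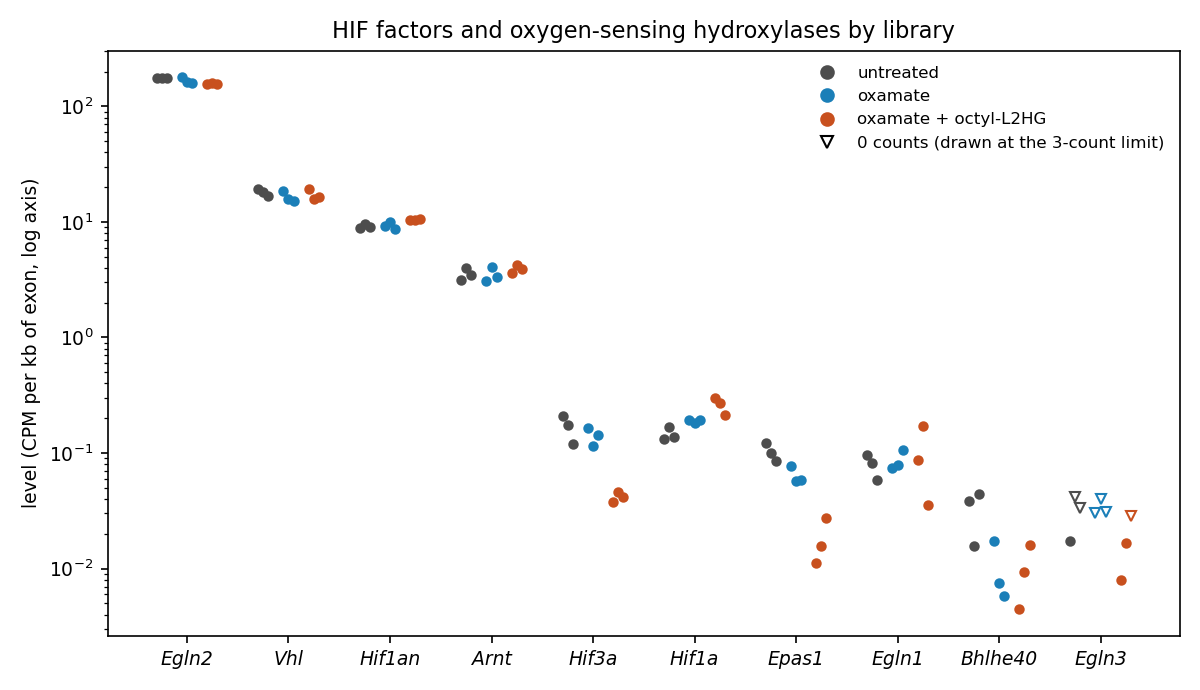
Level of each of the 10 genes in each of the 9 libraries, in CPM per kb of exon on a log axis, with genes ordered by their untreated mean and groups by colour. Open triangles are libraries with 0 counts, drawn at the level that 3 counts would give. Egln2, Vhl, Hif1an and Arnt form the upper range, and Hif3a and Epas1 have their lowest and Hif1a its highest libraries with octyl-L2HG.

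Egln2 supplied nearly all prolyl hydroxylase mRNA. Its share of the summed CPM per kb of the 3 Egln genes left between 0.0225% and 0.119% for Egln1 and Egln3 together, over all 9 libraries. Within a library, Egln2 mRNA per kb exceeded Hif1a mRNA 1048- to 1329-fold in the untreated group, 812- to 930-fold with oxamate and 527- to 729-fold with oxamate and octyl-L2HG. The 3 ranges do not overlap. This ratio is formed within each library and does not depend on how libraries are scaled.

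Oxamate alone changed no gene of the set past the threshold. Limma-voom called 0 of the 8 tested genes at an adjusted p under 0.05, against 9.58% of all 18234 genes tested (5.74% higher and 3.84% lower). At an unadjusted p under 0.05 there was 1, Epas1, and the authors' deposited table also calls 0. With the library letter as a block in the fit, 4023 genes were called in place of 1747, and still 0 of the 8. The labels do not say whether a letter marks a pair. The authors' deposited p-values come from DESeq2. Hif1a differed by 0.40 on the log2 scale (SE 0.22, adjusted p 0.27) and Epas1 by -0.66 (SE 0.30, adjusted p 0.18). The groups did not overlap for either gene. How many of all genes lack overlap was not counted, so overlap is given only as a description, here and below. The 95% interval was -0.08 to 0.87 for Hif1a and -1.31 to -0.01 for Epas1, so changes of that size are not settled by 3 libraries a group. The other 6 tested genes overlapped between the groups.

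Epas1 and Hif3a were lower with octyl-L2HG and oxamate than with oxamate alone. These were 2 of the 8 tested genes, both lower, against 19.5% of all genes called (4.11% higher and 15.4% lower). A share near the background is not by itself a result about the set. Against untreated cells, 3 of the 8 were called, Hif1a higher and Epas1 and Hif3a lower, against 38.3% of all genes (17.2% higher and 21.1% lower). The comparisons share libraries, so their calls are not independent of one another. Epas1 and Hif3a passed the filter on low counts through the untreated and oxamate groups, in which they are higher.

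Hif1a encodes the alpha subunit best known for switching glycolytic genes in low oxygen. Its untreated libraries A, B and C held 34, 27 and 27 counts, or 0.777, 0.999 and 0.809 CPM. With oxamate they held 42, 30 and 42 counts, or 1.13, 1.06 and 1.15 CPM. With oxamate and octyl-L2HG they held 84, 36 and 50 counts, or 1.76, 1.58 and 1.27 CPM. Every library with both compounds lay above every library of the other groups, and every oxamate library lay above every untreated one. Hif1a rose 1.79-fold from untreated to both compounds (log2 change 0.84, SE 0.21, limma adjusted p 0.0076). The step from oxamate to both compounds was 0.45 on the log2 scale (SE 0.20, adjusted p 0.15) and was not called. In the authors' deposited table the corresponding changes are 0.84 with an adjusted p of 0.043, and 0.46 with an adjusted p of 0.47.

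The gene lies on chromosome 12 at 73901375 to 73947530, on the plus strand of GRCm38. It shares 330 exon bases with the antisense gene Gm15283, which held 11 to 33 counts a library, and the sources used here do not say whether reads were counted by strand. Gm15283 averaged 0.448 CPM untreated, 0.864 with oxamate and 0.664 with both compounds. Its change was called with oxamate against untreated (log2 change 0.90, adjusted p 0.038) and not with both compounds against untreated (0.53, adjusted p 0.11). Its part in the Hif1a counts was not tested.

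Epas1 encodes HIF-2 alpha, known from endothelial cells and from the control of erythropoietin. It lies on chromosome 17 at 86753700 to 86833410, on the plus strand. Its counts were 30, 15 and 16 untreated, 16, 9 and 12 with oxamate, and 3, 2 and 6 with both compounds. In CPM these are 0.685, 0.555 and 0.479, then 0.431, 0.319 and 0.329, then 0.0630, 0.0879 and 0.152. The 3 groups do not overlap and descend in that order. Epas1 fell 3.46-fold from oxamate to both compounds (log2 change -1.79, SE 0.40, limma adjusted p 0.0079) and 5.46-fold from untreated (-2.45, SE 0.38, adjusted p 0.00043). The 3 libraries with both compounds sum to 11 counts, or 0.10 CPM with an exact Poisson interval of 0.050 to 0.179 that covers counting error only. Without library A of that group the fall from oxamate was -1.42 with an adjusted p of 0.058, and in the authors' deposited table it is -1.84 with an adjusted p of 0.063.

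Hif3a encodes an alpha subunit whose shorter forms are known to restrain the other HIF alphas. It lies on chromosome 7 at 17031507 to 17062427, on the minus strand. Its counts were 61, 32 and 27 untreated, 41, 22 and 35 with oxamate, and 12, 7 and 11 with both compounds. In CPM these are 1.39, 1.2 and 0.809, then 1.10, 0.779 and 0.958, then 0.252, 0.308 and 0.279. Untreated and oxamate libraries overlap, and all 3 libraries with both compounds lie well below them. Hif3a fell 3.34-fold from oxamate (log2 change -1.74, SE 0.32, limma adjusted p 0.0020) and 3.91-fold from untreated (-1.97, SE 0.31, adjusted p 0.00047). It is called in the authors' deposited table as well, with adjusted p-values of 0.0012 and 6.5e-05.

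**Figure D2:**
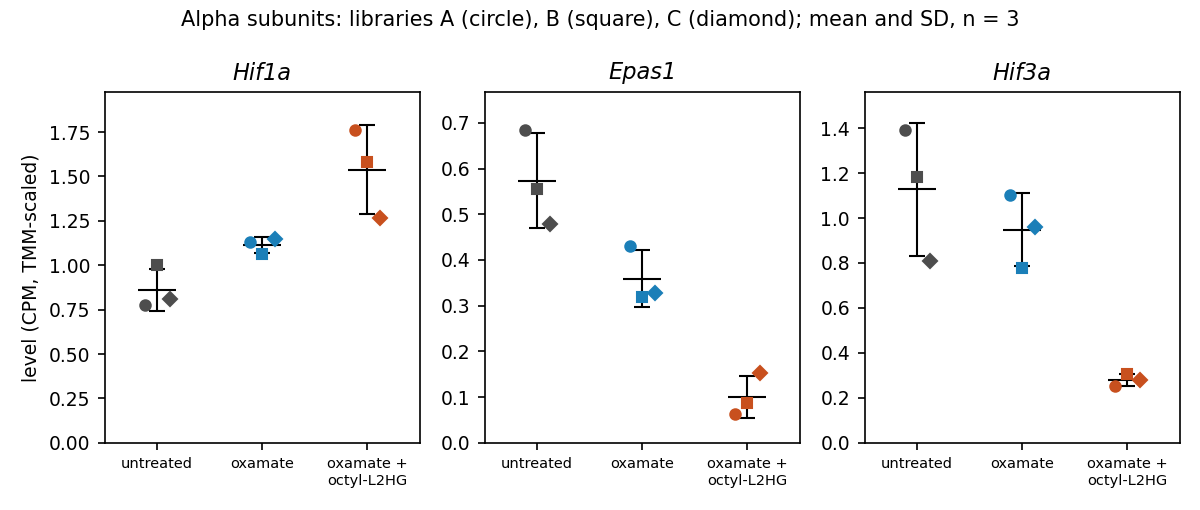
Level of the 3 alpha subunit genes in CPM, by group, with one symbol per library letter and the mean and SD of 3 libraries. Hif1a ranges from 0.777 to 1.76 CPM with its highest libraries under both compounds, while Epas1 and Hif3a have their lowest libraries there.

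The make-up of alpha subunit mRNA shifted with these changes. Hif1a made up 28.5%, 38.1% and 39.9% of the summed alpha CPM per kb in the untreated libraries A, B and C. It made up 44.3%, 51.0% and 49.2% with oxamate, and 86.0%, 81.3% and 75.8% with both compounds. The groups do not overlap. In CPM per kb, the summed level of the 3 genes was 0.344 to 0.462 untreated and 0.353 to 0.433 with oxamate. With both compounds it was 0.284 to 0.348, a range that overlaps the untreated one slightly and lies below the oxamate one. Within a library, Hif3a mRNA per kb was 0.879 to 1.58 times that of Hif1a in the untreated group and 0.126 to 0.193 times with both compounds.

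Some markers of other cells were also lower with both compounds than with oxamate, a step in which 15.4% of all genes were called lower. All 13 spermatid markers were lower with both compounds than with oxamate, and their summed level went from 795 to 941 CPM to 282 to 432 CPM. In oxamate against untreated 0 of the 13 were called. Of 8 tested peritubular and endothelial markers, 3 were called lower and 0 higher from oxamate to both compounds. Cdh5, the endothelial cadherin, went from 0.570 to 0.147 CPM (log2 change -1.92, adjusted p 0.0016), and Vwf, the von Willebrand factor, from 2.19 to 1.05 CPM (-1.03, adjusted p 0.0085). The third was Myh11, a smooth muscle myosin (-0.96, limma adjusted p 0.029). Cdh5 passed the filter on low counts only through the untreated and oxamate groups, in which it is higher. Pecam1 (2.54 to 2.80 CPM), Tek (1.04 to 1.09 CPM) and Tagln (2.81 to 3.49 CPM) had higher means with both compounds and were not called. The peritubular and endothelial list summed to 10.6 to 13.1 CPM with oxamate and 7.79 to 11.7 CPM with both compounds, ranges that overlap. In the untreated libraries the spermatid markers summed to 989 to 1128 CPM and the peritubular and endothelial ones to 13.1 to 14.6 CPM. Against untreated, 13 of 13 spermatid markers were again lower, as were Cdh5, Vwf and Myh11, while Tagln was higher. Vwf was also lower with oxamate alone, at 3.54 CPM untreated and 2.19 CPM with oxamate (adjusted p 0.0497). In bulk RNA, fewer cells of a type and less RNA per cell cannot be told apart. The part of either marker list in the falls of Epas1 and Hif3a, or in those of the list genes given below, was not tested.

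Spermatocyte markers were the most abundant of the marker lists. The 14 spermatocyte markers summed to between 6037 and 7866 CPM over the 9 libraries, while single markers changed. From oxamate to both compounds Spag6 fell 2.45-fold and Hormad1 rose 1.27-fold. From untreated to both compounds Spag6 fell 2.72-fold, and Sycp1 and Mybl1 rose 1.43- and 1.65-fold. Sertoli markers summed to 2.11 to 3.77 CPM, with Gata4 at 0 counts throughout, and macrophage markers to 2.83 to 9.80 CPM. Markers of spermatogonia and early meiosis summed to 44.8 to 67.9 CPM, most of it Id4. With both compounds against untreated, Id4 was called higher and Gfra1 and Kit lower. Leydig markers summed to 3.47 to 3.95 CPM untreated, 1.94 to 2.55 CPM with oxamate and 2.81 to 3.08 CPM with both compounds, groups that do not overlap. Star, the only Leydig marker tested, made up most of these sums, at means of 3.32, 1.91 and 2.57 CPM in that order. The rest were near the limit of detection and moved both ways, with Cyp11a1 and Lhcgr higher and Cyp17a1 lower with oxamate. With oxamate against untreated, Star (limma adjusted p 0.021) and the leukocyte marker Ptprc (limma adjusted p 0.045) were lower. The macrophage marker Csf1r had a higher mean, 1.70 CPM untreated and 2.82 CPM with oxamate, and was not called. The part of these markers in the list changes with oxamate was not tested. Library totals ran from 24849620 to 46671048 counts. On the first principal component, library C with both compounds lay at 49.6 and libraries A and B of that group at 100.1 and 103.0, with the other 6 libraries below 0.

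Arnt, the shared partner of the alpha subunits, did not pass the test in any comparison. Its libraries held 25, 31.7 and 27.8 CPM untreated, 24.8, 32.3 and 26.8 CPM with oxamate, and 29.1, 34.2 and 31.6 CPM with both compounds. The groups overlap, and library B is the highest in each. The change from oxamate to both compounds was 0.18 on the log2 scale, with a 95% interval of -0.09 to 0.45.

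Egln2, known in the mouse for abundant expression in testis, was called in no comparison. It lies on chromosome 7 at 27158658 to 27166802, on the minus strand. Its libraries held 490.3, 497 and 489 CPM untreated, 499.6, 459 and 444 CPM with oxamate, and 442, 443 and 439 CPM with both compounds. The last group lies below the rest by a very small margin, with its highest library at 442.8 CPM and oxamate library C at 443.5 CPM. The change from untreated to both compounds was -0.16 on the log2 scale (SE 0.07, limma adjusted p 0.088). Its 95% interval, -0.31 to -0.01, covers small falls only. Egln2 shares 11 exon bases with Cyp2t4 on the opposite strand, which held 1 to 7 counts a library.

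Hif1an, the asparaginyl hydroxylase, was not called in any comparison either. It held 58.3, 63.0 and 60.2 CPM untreated, 60.4, 66.3 and 57.0 CPM with oxamate, and 69.1, 68.1 and 70.0 CPM with both compounds. The libraries with both compounds lie above all others. The change was 0.18 on the log2 scale against oxamate (SE 0.08, limma adjusted p 0.16) and 0.19 against untreated (SE 0.08, adjusted p 0.082). When the library letter entered the fit as a block, the changes against untreated were called for Hif1an (0.20, adjusted p 0.035) and Egln2 (-0.16, adjusted p 0.036), which made 5 genes called in place of 3.

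Vhl, the receptor subunit of the ligase that recognises hydroxylated alpha protein, did not pass the test. It held 58.1, 54.2 and 50.3 CPM untreated, 55.5, 47.2 and 45.6 CPM with oxamate, and 57.9, 46.9 and 49.1 CPM with both compounds. The groups overlap in every comparison. The change from untreated to both compounds was -0.08 on the log2 scale, with a 95% interval of -0.32 to 0.17.

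**Figure D3:**
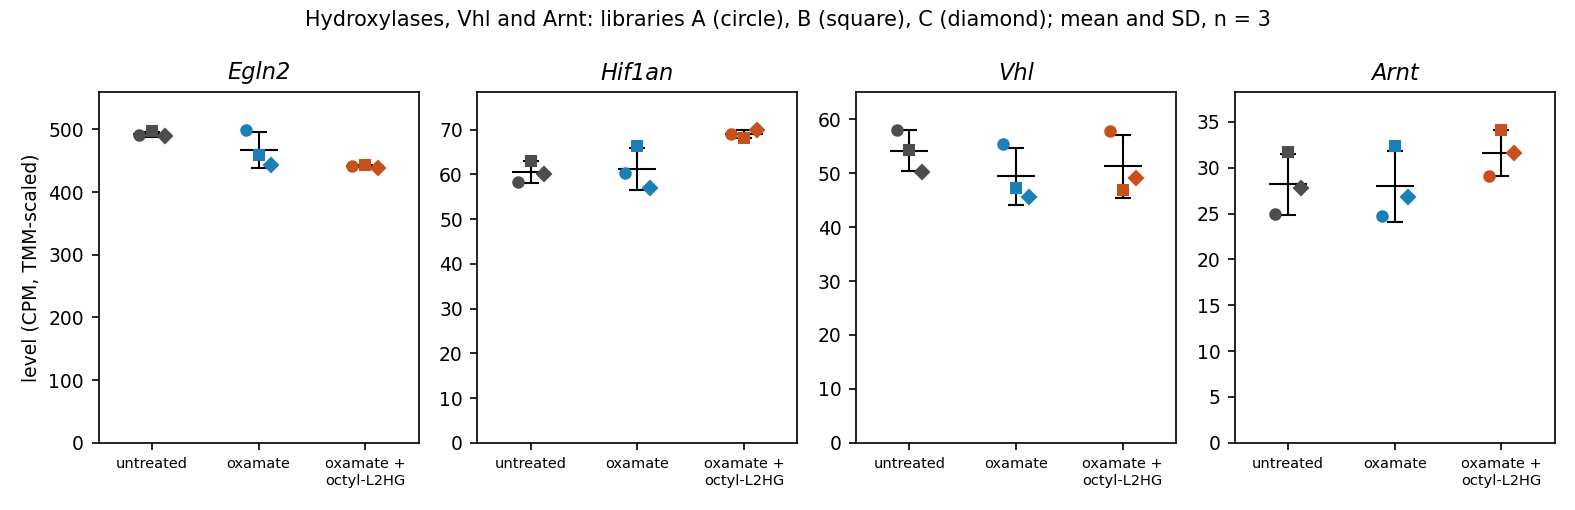
Level of Egln2, Hif1an, Vhl and Arnt in CPM, by group, with one symbol per library letter and the mean and SD of 3 libraries, on axes that start at 0. The libraries with both compounds lie lowest for Egln2, at 439 to 443 CPM, and highest for Hif1an, at 68.1 to 70.0 CPM, with small steps in both.

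The remaining genes were near the limit of detection. Egln1, the main HIF prolyl hydroxylase of most tissues, held 5 to 15 counts a library. Its mean was 0.283 CPM untreated, 0.312 with oxamate and 0.352 with both compounds, where library B held 0.616 CPM and library C 0.127. The 95% interval of its change from oxamate to both compounds ran from -1.2 to 0.84 on the log2 scale, and changes within it were not detectable at this depth. Egln3, a hydroxylase that HIF itself induces in many cells, held 2, 0 and 0 counts untreated, 0 in each oxamate library, and 1, 1 and 0 with both compounds. A count of 0 allows up to 0.106 CPM in the shallowest of the oxamate libraries.

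Bhlhe40 held 8, 2 and 7 counts untreated, 3, 1 and 1 with oxamate, and 1, 1 and 3 with both compounds. Summed over libraries that is 0.163 CPM untreated (exact Poisson interval 0.0951 to 0.261), 0.0491 with oxamate (0.0159 to 0.115) and 0.0455 with both compounds (0.0148 to 0.106). The groups overlap. With no filter on low counts its change was -1.44 on the log2 scale with oxamate (limma adjusted p 0.26) and -1.55 with both compounds against untreated (adjusted p 0.085).

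**Figure D4:**
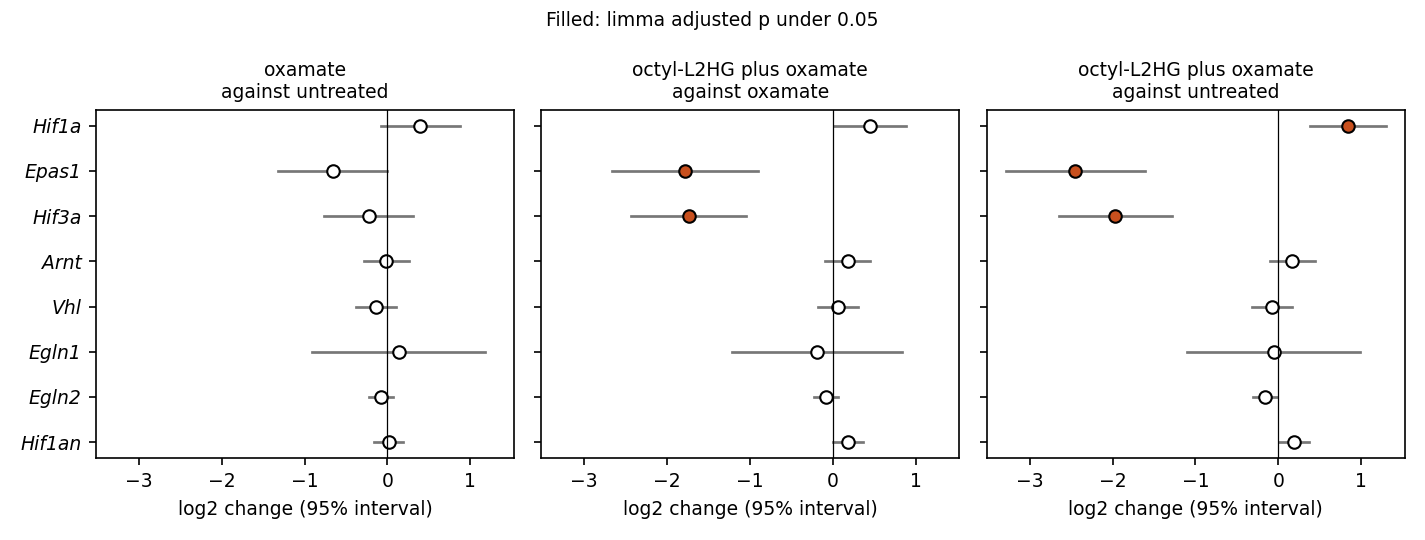
Log2 change of the 8 tested genes in the 3 comparisons, with 95% intervals from limma-voom; filled points have an adjusted p under 0.05. Epas1 (-1.79) and Hif3a (-1.74) are filled in octyl-L2HG plus oxamate against oxamate, Hif1a (0.84) joins them against untreated, and 0 genes are filled for oxamate alone.

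Genes that HIF is known to switch on gave no single direction. The list holds 45 target genes, of which 32 were tested. With oxamate against untreated 3 were higher and 3 lower, beside 5.74% and 3.84% of all genes, and the median log2 change was -0.05 beside -0.01 over all genes. Vegfa, a growth factor of blood vessels, rose 1.91-fold, Tfrc, the transferrin receptor, 1.72-fold, and Kdm3a, a histone demethylase, 1.23-fold. The glycolytic genes Eno1 and Ldha fell 1.35- and 1.21-fold, and Ero1l, an oxidase of the endoplasmic reticulum, fell 1.45-fold. These calls depend on single libraries. Leaving out A, B or C of the untreated libraries took the count of 6 to 1, 0 and 0, and leaving out B or C of the oxamate libraries took it to 1 and 0. Each of the 6 genes lost its call in 4 to 7 of the 16 alternatives run. The authors' deposited table also has 3 higher and 3 lower.

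With octyl-L2HG added to oxamate 1 target was higher and 5 were lower, with a median of 0.00 beside 0.07 over all genes. That is 18.8% of the tested targets, near the 19.5% of all genes called. The authors' deposited table has 3 higher and 4 lower. Without library B with both compounds the split was 3 higher and 4 lower, and without untreated library B or C or library A with both compounds 0 were higher. Kdm3a rose 1.2-fold (limma adjusted p 0.011). Rora, a nuclear receptor, fell 9.68-fold (log2 change -3.28, SE 0.36, adjusted p 0.00010). Its libraries held 3.96, 4.07 and 4.55 CPM with oxamate and 0.525, 0.132 and 0.684 CPM with both compounds, well apart. Pfkfb3, which makes the activator of phosphofructokinase, fell 4.0-fold (adjusted p 0.00013), from 7.67 to 8.80 CPM to 1.51 to 3.22 CPM. Gpi1, the glucose phosphate isomerase, fell 1.92-fold, the zinc finger gene Zfp292 fell 1.51-fold, and Hk1, a hexokinase, went from 632 to 426 CPM (adjusted p 0.0055). The calls of Rora, Pfkfb3 and Gpi1 were kept in all 16 alternatives, while Kdm3a lost its call in 4 and Zfp292 in 6. Every spermatid marker listed was lower in this step too, and the part of these markers in the target falls was not tested. In the fit with the block, 10 targets were called, 4 higher and 6 lower.

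Against untreated cells, 6 targets were higher and 9 lower with both compounds, with a median of -0.10 beside 0.01. That is 46.9% of the tested targets, beside 38.3% of all genes called. The 6 higher became 3 without untreated library C or without library A with both compounds. The authors' deposited table also has 6 higher and 9 lower. Vegfa rose 2.88-fold (log2 change 1.52, SE 0.25, limma adjusted p 0.00057). Its libraries held 3.13, 2.26 and 1.71 CPM untreated, 5.65, 3.44 and 4.41 with oxamate, and 7.50, 5.23 and 7.27 with both compounds. The untreated libraries lie below all others, while the ranges of the 2 treated groups overlap. Tfrc rose 2.39-fold and Kdm3a 1.49-fold, from 413 to 616 CPM. Ddit4, an inhibitor of mTOR signalling, was called higher at 0.154 CPM untreated and 0.539 CPM with both compounds, with groups that overlap. Rora fell 12.9-fold, Pfkfb3 4.45-fold, Gpi1 2.32-fold and Nos2, the inducible nitric oxide synthase, from 0.452 to 0.107 CPM (limma adjusted p 0.0025). Nos2 passed the filter on low counts only through untreated and oxamate libraries, where it is higher. Ddit4 passed it mainly through treated libraries, where it is higher.

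Many genes commonly used to report HIF activity were hardly expressed. Of the 45 targets, 13 were too low to test, among them Slc2a1, Hk2, Car9, Adm, Ndrg1, Pdk1 and Hmox1. Slc2a1, the glucose transporter most often taken as a target, averaged 0.128 CPM untreated, whereas Slc2a3, a related transporter, averaged 2902 CPM untreated and 2938 CPM with both compounds. Ldha averaged 1249 CPM untreated, 1038 with oxamate and 1043 with both compounds.

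**Figure D5:**
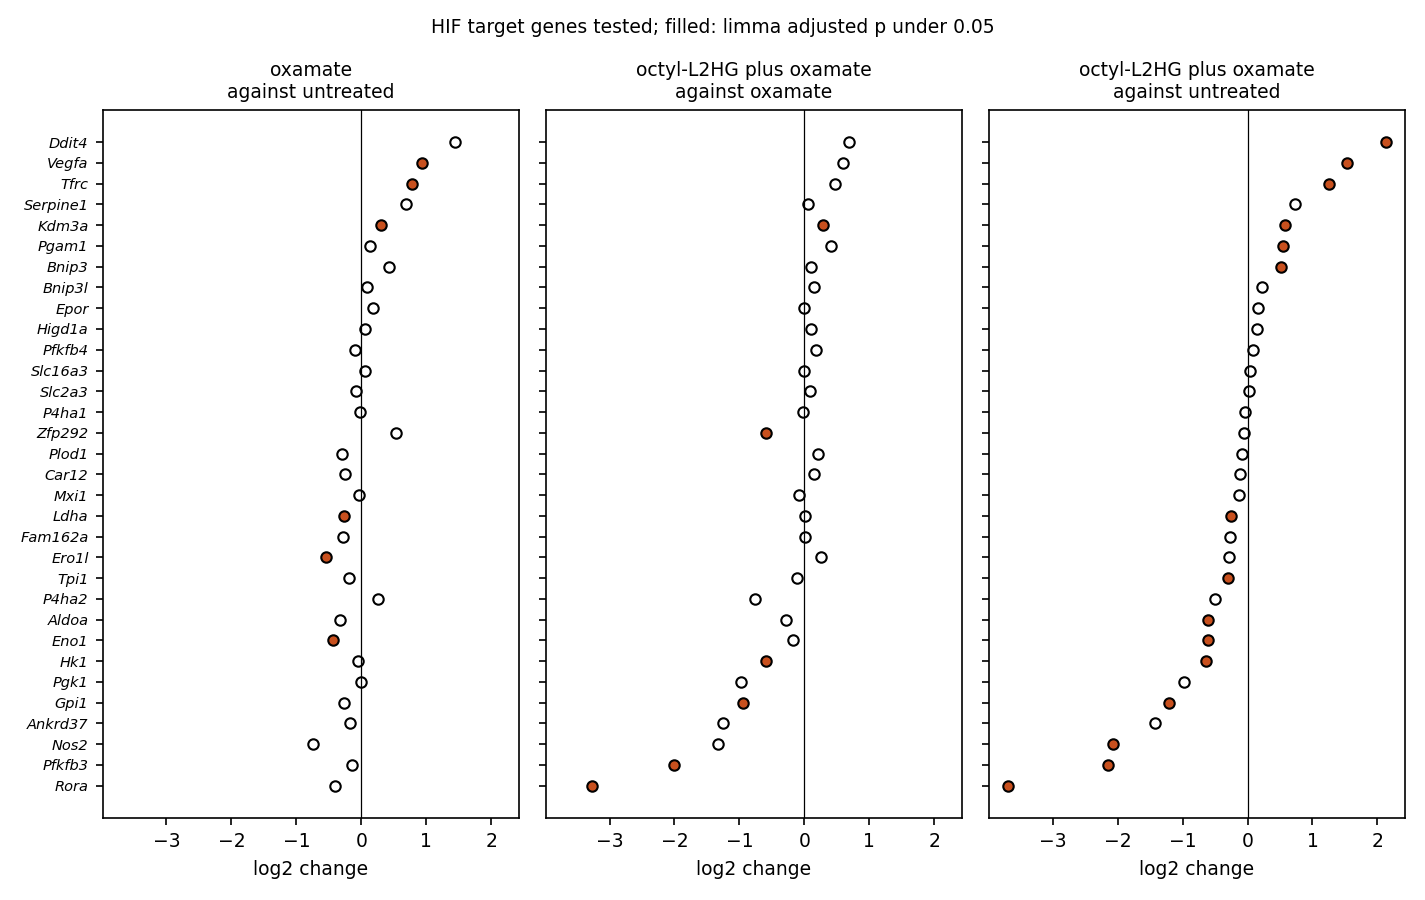
Log2 change of the 32 tested HIF target genes in the 3 comparisons, ordered by their change in octyl-L2HG plus oxamate against untreated; filled points have a limma adjusted p under 0.05. Filled points lie on both sides of 0, with 6 higher and 9 lower in the right panel and Rora, Pfkfb3 and Nos2 at the lower end.

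Among genes for HIF cofactors and for partners in HIF degradation, 6 of 30 tested were higher and 0 lower with oxamate against untreated, beside 5.74% higher and 3.84% lower of all genes. The median log2 change was 0.11 beside -0.01 over all genes. The authors' deposited table has 6 higher and 2 lower for this list. Those with the largest change were Siah1b, a ubiquitin ligase (0.285 to 0.794 CPM), and Usp28, a ubiquitin protease (1.41-fold). Next came Os9, a lectin of the endoplasmic reticulum (1.36-fold), and Crebbp, a histone acetyltransferase and HIF coactivator (1.35-fold). Siah1b passed the filter on low counts mainly through treated libraries, in which it is higher. The count of 6 went to 0, 0 and 1 when A, B or C of the untreated libraries was left out and to 2 and 1 when B or C of the oxamate libraries was. It was 12 in the fit with the block. With octyl-L2HG added, Siah1a, a ubiquitin ligase, and Rheb, an activator of mTOR, were higher, 1.28- and 1.26-fold, and Pkm, the pyruvate kinase whose M2 form binds HIF-1 alpha, fell 3.87-fold from 27.0 ± 2.11 to 7.01 ± 1.79 CPM (SD, n = 3; log2 change -1.95, limma adjusted p 3.4e-05). Siah1a lost its call in 10 of the 16 alternatives and Rheb in 7, and Pkm kept it in all. That count of 3 went to 1 without untreated library B or C, without oxamate library A or without library A or B with both compounds, and to 5 without library C of that group. It was 6 in the fit with the block. Against untreated 11 were higher and 2 lower, beside 17.2% higher and 21.1% lower of all genes. In total 43.3% of those tested were called, beside 38.3% of all genes. The authors' deposited table has 11 higher and 4 lower. The 11 include Siah1b, from 0.285 to 0.708 CPM, and Usp28 and Siah1a, 1.70- and 1.71-fold higher. The 2 lower were Pkm, 4.45-fold (limma adjusted p 9.1e-06), and Elob, a partner of VHL, 1.29-fold. Without untreated library A that total of 13 was 8.

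A further list holds other genes of the bHLH-PAS family and of the circadian clock, of which 22 were tested. Some of them, though not all, resemble Arnt and the alpha subunits in their domains or bind such proteins. With oxamate 4 were higher and 0 lower, beside 5.74% and 3.84% of all genes, with a median of 0.29 beside -0.01 over all genes. The coactivators Ncoa1 and Ncoa3 rose 1.65- and 1.41-fold, and the clock genes Clock and Cry2 rose 1.52- and 1.41-fold. The count of 4 was 2 without untreated library B or C or oxamate library C, and it was 7 in the fit with the block. The calls of Ncoa1 and Ncoa3 were kept in all 16 alternatives. With octyl-L2HG added, 1 was higher (Cry2, 1.34-fold) and 0 lower. That count was 0 with no filter on low counts or in a fit of only the 6 libraries compared, 3 without oxamate library B, 2 without oxamate library C and 5 in the fit with the block. Cry2 lost its call in 2 of the 16 alternatives, with an adjusted p of up to 0.062. Against untreated 8 were higher and 0 lower, beside 17.2% higher and 21.1% lower of all genes. In total 36.4% of those tested were called, beside 38.3% of all genes. The largest rises were Arntl2 at 2.06-fold, Cry2 at 1.88-fold, Clock at 1.82-fold and Per2 at 1.64-fold.

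Other 2-oxoglutarate-dependent hydroxylases of the same enzyme class include 18 that were tested. Some were near the limit of detection, where few calls are possible. P4ha1 and P3h2 stood at 0.238 and 0.242 CPM untreated, with SEs of 0.55 and 0.54 on the log2 scale with oxamate. Limma called 0 with oxamate, beside 9.58% of all genes, and 0 with octyl-L2HG added, beside 19.5%. At an unadjusted p under 0.05 there was 1 in each. The authors' deposited table has 1 higher and 0 called, in that order. Against untreated 1 was called, beside 38.3% of all genes. It was Jmjd6, a lysyl hydroxylase, which rose 1.3-fold from 34.4 to 44.6 CPM (limma adjusted p 0.0083). Without untreated library B that count was 0, and without library B or C with both compounds the earlier 2 counts of 0 became 1 and 2. In the fit with the block, 1, 1 and 4 genes were called in the 3 comparisons.

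Across the 9 libraries, log2 CPM of Epas1 and Hif3a followed each other with Pearson's r of 0.95, and that of Hif1a ran against Epas1 with r of -0.94. These values describe 9 libraries whose groups differ, and carry no test. By the same measure, the genes most like Hif1a were Cdk7 (r of 0.97), Mapkap1 and Them4, and those most like Epas1 were Dscaml1 (r of 0.996), Ttc24 and Spire1. The genes most like Hif3a were Rangap1 (r of 0.989), Dnajb13 and Cd46. For Egln2 they were Pex6, Larp6 and Mos, for Vhl Tlcd1, Tcta and Reep5, for Hif1an Slc39a9, Bcas1os2 and Fmnl3, and for Arnt Efcab8, Pramef12 and Ash1l. Egln1, with its few counts, was nearest Celsr1, Tvp23bos and Hmgn3. For Epas1 and Hif3a, 1% of all tested genes had r above 0.974 and 0.959, so that many genes share their pattern.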

How the data were processed

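Poly-A RNA was sequenced from 9 libraries in 3 groups of 3. Per the submitters' processing notes, the tools named are HTSeq (version 0.6.0), TopHat2 (version 2.1.1), cutadapt (version 1.18), bcl2fastq (version 2.18.0.12) and DESeq2 (version 1.22.2), with the build GRCm38. Parameters and the handling of strand are not given in the sources used here. The deposited table holds raw counts for 49216 of 55471 genes. The other 6255 have a question mark in all raw columns and were left out, and for this reason the columns were entered as another unit, although all 442944 deposited values are whole. The authors' deposited log2 fold changes and adjusted p-values are their own DESeq2 comparison. Totals of 24849620 to 46671048 counts a library make counting error small for all but the low genes.

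The members and lists were chosen with earlier results of these data known. A gene was tested if 3 libraries reached the CPM that equals 10 counts at median depth and if its total came to 15 or more, which gave 18234 genes. TMM scaling trimmed 30% of the log ratios and 5% of the levels. Limma-voom (limma 3.58.1, statmod 1.5.0, R 4.3.3; offset 0.5, robust, 9 libraries in one fit, 6 residual degrees of freedom) gave two-sided tests, adjusted by Benjamini-Hochberg over all tested genes, with a threshold of 0.05. The procedure was tested on simulated data. CPM values are TMM-scaled, and values per kb divide them by the exon length of the gene in GENCODE M21.

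Named genes are all 10 members and, from each list and comparison, up to 4 of the largest rises and 4 of the largest falls past the threshold; Slc2a1, Slc2a3, Ldha, Hk1 and the other low targets were named after their values were seen. One of 128 list symbols was not matched. Likeness is the highest Pearson's r of log2 CPM among symbols that are not gene model names. Untreated and oxamate libraries with the same letter deviated from their group means together, with correlations of 0.40, 0.40 and 0.29. Libraries with different letters were not compared in this way, so these values do not settle whether the letters mark pairs. With both compounds the correlations for letters A, B and C were 0.31, 0.39 and 0.04 against oxamate. Against untreated they were 0.17, 0.34 and 0.06. Replicates of every group differed from each other beyond sampling noise. Alternatives were other scalings, filters, sample sets, limma-trend, the letter as a block, and leaving out each library; they were applied to the list genes and to 3 of the lists as an addition made after the data were seen.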

Additional observations from a re-analysis of the deposited data

How the results depend on the processing

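Over 16 alternatives, 0 of the tested members were called for oxamate alone. Hif1a, Epas1 and Hif3a kept their calls against untreated in every alternative that tested them, with log2 changes of 0.71 to 0.99, -2.77 to -2.08 and -2.23 to -1.77, and Hif3a kept its call against oxamate, at -1.86 to -1.63. The exception was Epas1 against oxamate. A filter at 1 CPM in 3 libraries removed Epas1 from the test, which left 1 member called, and without a library the members called numbered 1 to 2. In the fit with the replicate block 5 members were called against untreated. Egln2 was also called against untreated with the 1 CPM filter (-0.22, limma adjusted p 0.025). The block gave 4023 genes called for oxamate and 10 HIF targets called for octyl-L2HG added; it also moved calls in the other 3 lists, given beside them. Without a library, the genes called for oxamate numbered 338 to 2297 and the HIF targets 0 to 6, and the genes called for octyl-L2HG added numbered 2297 to 3662. The share of higher genes was 59.9% for oxamate, 70.0% with no filter and 51.6% with upper quartile scaling, and 21.1% for octyl-L2HG added, 5.73% in 6 libraries, 9.78% with no filter and 38.3% with the block. Reversed signs were all in changes not called: Hif1an with oxamate, -0.0168 with upper quartile scaling and -0.0414 to 0.064 without a library; Arnt with oxamate, 0.0225 with no filter and -0.112 to 0.0734; Egln1 with oxamate -0.0561 to 0.302, with octyl-L2HG added -0.622 to 0.369, and against untreated 0.0530 with the replicate block, 0.0697 with limma-trend and -0.453 to 0.505; Vhl with octyl-L2HG added, -0.0351 to 0.15. The causes were not tested. Depth limits Egln1, Egln3 and Bhlhe40, and the low counts of Epas1 with both compounds.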
